A study of Mus musculus with 12 samples.

Results

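The genes described here are those of meiotic cohesin and of proteins that protect, release or cut it in mouse oocytes. They are 10 of the 55573 genes counted: Rec8, Rad21, Smc1b, Smc1a, Smc3, Stag3, Sgo1, Sgo2a, Wapl and Espl1. The genes were chosen by symbol, and each symbol was matched to its Ensembl identifier in GENCODE mouse release 21 (build GRCm38). Counts were found for 9 of the 10, and Rec8 was at 0 in every library.

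Cohesin is a ring that holds sister chromatids together from the replication of DNA until they separate. Its core pairs an Smc1 and an Smc3 protein with a kleisin subunit that closes the ring (Rad21, or in meiosis Rec8 and Rad21l) and a Stag subunit (Stag1, Stag2, or in meiosis Stag3), and Smc1b replaces Smc1a in much of the meiotic complex. The ring is loaded onto oocyte chromosomes before birth and must last until ovulation. Separase, the product of Espl1, cuts the kleisin at anaphase, and shugoshin proteins bring protein phosphatase 2A to the centromeres to shield it there during the first division.

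The libraries were made from poly(A) RNA of single germinal vesicle (GV) oocytes, which are fully grown and still have an intact nuclear envelope. The oocytes, 8 in all, came from 1 healthy B6D2F1 female aged 12 weeks, and the 6 fraction libraries come from only 2 of them, so they are not separate oocytes although the tests treat them as such. Whole oocytes were amplified for 10, 14 or 18 cycles, each with 2 libraries, and lysates diluted to 1/2, 1/4 or 1/8 of an oocyte gave 2 libraries each at 18 cycles. The same amount of ERCC spike-in RNA (External RNA Controls Consortium) was added to every lysate.

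Whole oocytes had 11597144 and 9189672 counts on genes with 10 cycles, 12349577 and 13806199 with 14, and 3017069 and 1706478 with 18. They were 4024670 and 3598549 for 1/2 of an oocyte, 4027907 and 5049518 for 1/4, and 11404262 and 1702062 for 1/8. ERCC counts ranged from 1474 in a whole oocyte at 18 cycles to 231470 in a 1/8 fraction. Levels are given as counts per 1000000 counts on genes (CPM), for replicate 1 and then replicate 2 of a group. The intervals and limits hold for the error of counting alone, and copies made by amplification add to it.

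The labelled cell type was checked against markers. All 10 oocyte markers had counts in all 12 libraries, and their summed level was lowest in the whole oocytes at 18 cycles, with 8399 and 6607 CPM. It was 29658 and 25230 CPM at 10 cycles and 28436 and 29562 CPM at 14 cycles. In the fractions the sum was 9754 and 9759 CPM for 1/2, 15027 and 16245 CPM for 1/4, and 21898 and 20727 CPM for 1/8. The most abundant oocyte marker was Padi6, Gdf9 or Ooep in each library. The 12 markers of granulosa cells, which surround the oocyte, summed to between 28.1 and 176 CPM. Their most abundant gene was Nr5a2 or Cyp19a1, while the medians of Amhr2, Foxl2 and Fshr over the libraries were 0 CPM. Inha reached 34.1 CPM and Gja1 32.5 CPM. Blood markers summed to at most 0.172 CPM.

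Rec8 encodes the kleisin of meiotic cohesin (ENSMUSG00000002324, chr14:55618037-55625395, plus strand). It had 0 counts in each of the 12 libraries, and 0 of 81473107 counts on genes when they were pooled. At a 1-sided 95% Poisson limit a count of 0 allows up to 3 counts, which is 0.217 CPM in the deepest library, 1.76 CPM in the shallowest and 0.0368 CPM in the pool. The upper ends of the 2-sided 95% intervals used for the other genes would be 0.267 and 2.17 CPM in the deepest and shallowest library. Rec8 could not be tested in any comparison. Counts alone do not show whether its mRNA was absent or its reads were not countable with the annotation used, which is not stated. It was 1 of 4304 protein-coding genes, of 21980, that were at 0 in all 12 libraries (19.6%). Its exons overlap no other gene in the annotation. The neighbours of Rec8, looked up after this 0 was seen, were counted: Ipo4, which ends 5 bases away on the other strand, had 27 to 528 counts per library, Rnf31 had 24 to 407 and Irf9 had 0 to 16.

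Rad21 encodes the kleisin that cohesin also uses outside meiosis (ENSMUSG00000022314, chr15:51962240-51991747, minus strand). Its level was 77.2 and 85.2 CPM at 10 cycles, 82.5 and 58.6 CPM at 14 cycles, and 33.1 and 34.0 CPM at 18 cycles. In the fractions it was 23.4 and 45.0 CPM for 1/2, 36.0 and 37.6 CPM for 1/4, and 58.6 and 79.9 CPM for 1/8. Both whole oocytes at 18 cycles lay below the whole oocytes at 10 and 14 cycles, and both 1/8 libraries lay above the whole oocytes at 18 cycles. How many of all genes show this order was not counted. The 3-count limit of Rec8 was below the level of Rad21 per kilobase of transcript in every library, by 3.42 to 7.55 on the log2 scale. Rad21l, the other meiotic kleisin, ranged from 0 to 6.08 CPM and had counts in 10 of 12 libraries. Its median level was 0.843 CPM per kilobase, against 13.1 CPM per kilobase for Rad21.

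Smc1b encodes the Smc1 subunit of meiotic cohesin (ENSMUSG00000022432, chr15:85064689-85131964, minus strand). Its level was 16.7 and 18.0 CPM at 10 cycles, 13.2 and 22.0 CPM at 14 cycles, and 7.95 and 7.03 CPM at 18 cycles. The fractions gave 14.2 and 15.3 CPM for 1/2, 9.19 and 12.3 CPM for 1/4, and 8.24 and 16.5 CPM for 1/8. The whole oocytes at 18 cycles were the lowest libraries, with 24 and 12 counts. Smc1a, the subunit shared with mitotic cohesin (ENSMUSG00000041133, chrX:152016428-152062694, plus strand), was at 85.8 and 89.8 CPM at 10 cycles, 73.8 and 66.3 CPM at 14 cycles, and 44.7 and 45.7 CPM at 18 cycles. It was at 56.2 and 55.3 CPM in 1/2, 50.2 and 57.4 CPM in 1/4, and 77.3 and 101.1 CPM in 1/8 of an oocyte. Smc1a was thus also lowest in the whole oocytes at 18 cycles. The share of all genes that were lowest in these libraries was not counted. Per kilobase of transcript, Smc1b was below Smc1a in 12 of 12 libraries, with a mean log2 ratio of −2.15 (SD 0.42) and a range from −3.02 in a 1/8 library to −1.38 in a 14-cycle library.

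Smc3, the partner of both Smc1 proteins (ENSMUSG00000024974, chr19:53600398-53645833, plus strand), was at 244 and 271 CPM at 10 cycles, 238 and 231 CPM at 14 cycles, and 318 and 325 CPM at 18 cycles. The fractions were at 347 and 364 CPM for 1/2, 170 and 266 CPM for 1/4, and 255 and 394 CPM for 1/8. Among whole oocytes Smc3 was thus highest at 18 cycles, where Smc1a and Rad21 were lowest. In every library it ranked above at least 90.1% of protein-coding genes by level per kilobase.

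Stag3 encodes the Stag subunit of meiotic cohesin (ENSMUSG00000036928, chr5:138280240-138312393, plus strand). By its median level it was the scarcest member with any counts, though it lay above Smc1b in replicate 1 of 1/8. It was at 3.36 and 2.50 CPM at 10 cycles, 3.16 and 2.03 CPM at 14 cycles, and 5.97 and 2.93 CPM at 18 cycles. The fractions gave 0.497 and 4.45 CPM for 1/2, 0.993 and 0.594 CPM for 1/4, and 11.3 and 1.76 CPM for 1/8. The 2 libraries of 1/8 differed 6.42-fold, with 129 counts (exact Poisson 95% interval 9.44 to 13.4 CPM) against 3 counts (0.363 to 5.15 CPM), and those of 1/2 differed 8.95-fold, with 2 against 16 counts. The ranges of most groups of Stag3 thus overlapped, and in 4 of the 8 libraries at 18 cycles it had 4 counts or fewer. Per kilobase, Stag3 was below the sum of Stag1 and Stag2 in all 12 libraries, with a mean log2 ratio of −4.52 (SD 1.41) and a range from −6.26 to −2.31. Stag1 ranged from 13.5 to 48.2 CPM and Stag2 from 19.9 to 79.3 CPM.

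Sgo1 and Sgo2a encode the shugoshins. Sgo1 (ENSMUSG00000023940, chr17:53674786-53689333, minus strand) was at 50.4 and 64.3 CPM at 10 cycles, 48.3 and 53.5 CPM at 14 cycles, and 35.8 and 35.7 CPM at 18 cycles. The fractions were at 77.8 and 48.1 CPM for 1/2, 39.5 and 40.0 CPM for 1/4, and 54.8 and 82.8 CPM for 1/8. The lowest libraries were the whole oocytes at 18 cycles, a pattern whose share over all genes was not counted. Sgo2a, the shugoshin needed to protect meiotic cohesin in mouse oocytes (ENSMUSG00000026039, chr1:57995971-58025899, plus strand), was at 105 and 151 CPM at 10 cycles, 86.8 and 88.9 CPM at 14 cycles, and 92.5 and 98.4 CPM at 18 cycles. It was at 140 and 128 CPM in 1/2, 99.1 and 117 CPM in 1/4, and 94.3 and 149 CPM in 1/8. The groups of Sgo2a overlapped in part, and it had the narrowest range of all members, 1.74-fold from the lowest to the highest library.

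Per kilobase of its longest transcript Sgo2a was above Sgo1 in all 12 libraries, by 0.29 to 1.11 on the log2 scale (mean 0.68, SD 0.30). Over the union of all exons the mean was 0.24 and the ratio was below 0 in 5 of 12 libraries, so which of the pair is the more abundant depends on the length used. Of the 7007 exon bases of Sgo2a, 2455 are shared with Kctd18 on the opposite strand. The libraries do not mark the strand, and if the strand was ignored in counting, reads on shared bases were counted for neither gene, so the levels of Sgo2a and of Kctd18 (26.2 to 81.7 CPM) may be too low.

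Wapl and Espl1 encode proteins that take cohesin off chromosomes. Wapl opens the ring (ENSMUSG00000041408, chr14:34673928-34747983, plus strand). It was at 367 and 501 CPM at 10 cycles, 298 and 297 CPM at 14 cycles, and 215 and 367 CPM at 18 cycles. The fractions gave 349 and 460 CPM for 1/2, 332 and 348 CPM for 1/4, and 283 and 586 CPM for 1/8. The ranges of Wapl at 18 cycles and in 1/8 were wide and overlapped those of every other group, while 14 cycles lay below 10 cycles, 1/2 and 1/4. Espl1 encodes separase (ENSMUSG00000058290, chr15:102296266-102324357, plus strand), and it was at 254 and 276 CPM at 10 cycles, 207 and 175 CPM at 14 cycles, and 268 and 254 CPM at 18 cycles. The fractions gave 218 and 212 CPM for 1/2, 284 and 238 CPM for 1/4, and 256 and 120 CPM for 1/8. The lowest of these values, in 1/8, came from the library with the fewest counts, where Espl1 had 204.

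**Figure D1:**
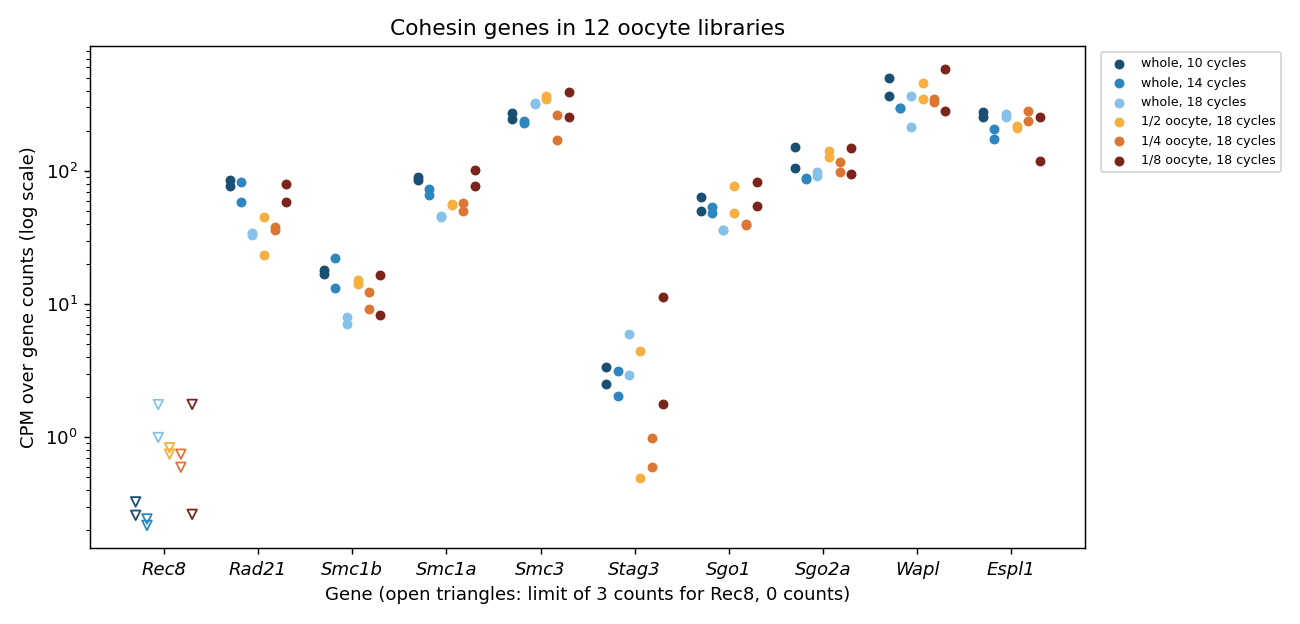
Levels of the 10 cohesin genes in 12 oocyte libraries, as CPM over gene counts on a log scale, with each point 1 library colored by group. Rec8 had 0 counts everywhere, and its open triangles mark the limit of 3 counts, from 0.217 to 1.76 CPM; Stag3 and Smc1b lie below the other genes with counts.

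The order of the members can be compared per kilobase of transcript. The medians over 12 libraries were 55.3 CPM per kilobase for Smc3, 54.9 for Wapl, 36.9 for Espl1 and 20.6 for Sgo2a. Sgo1, Smc1a and Rad21 followed at 13.6, 13.2 and 13.1 CPM per kilobase, and Smc1b and Stag3 came last at 3.38 and 0.582. Neighbours in this order were not separated by their spread where the higher gene led in only some libraries: Smc3 led Wapl in 7 of 12, Sgo1 led Smc1a in 7 and Smc1a led Rad21 in 8. Wapl led Espl1, Espl1 led Sgo2a, and Smc1b led Stag3 in 11 of 12 libraries each. Rad21 led Smc1b in 12 of 12, and so did Sgo2a lead Sgo1, but with union exon lengths Sgo2a was below Sgo1 in 5 of 12. Smc1b and Stag3, used mainly in meiotic cohesin, were thus the lowest of the 9 members with counts, and Rec8 has no place in this order. The members summed to between 995 and 1531 CPM, with a median of 1143 CPM.

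**Figure D2:**
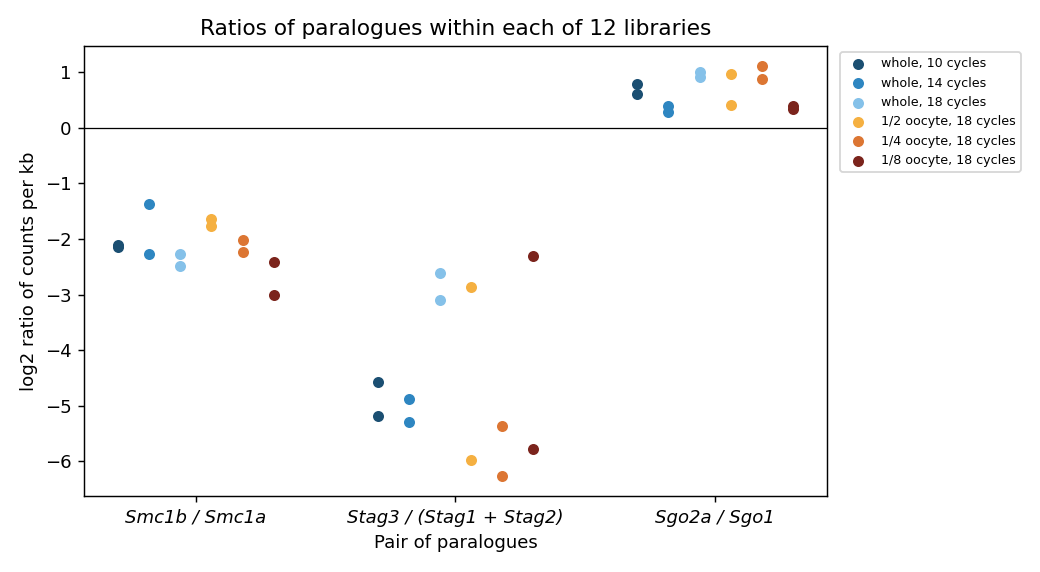
Log2 ratios of paralogues per kilobase of the longest transcript, with each point 1 of 12 libraries colored by group and the line at 0 marking equal levels. Smc1b lies below Smc1a and Stag3 below Stag1 plus Stag2 in every library, and Sgo2a lies 0.29 to 1.11 above Sgo1.

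Replicates of the members differed less than those of all genes in every group but 1/8, with no match for level. The median absolute log2 difference between the 2 libraries of a group was 0.15 over the members at 10 cycles, against 0.32 over all genes. It was 0.15 against 0.22 at 14 cycles, 0.08 against 0.47 at 18 cycles, 0.13 against 0.43 for 1/2 and 0.22 against 0.34 for 1/4. In 1/8 of an oocyte the members differed by 0.66, against 0.52 over all genes. These differences are of log2(CPM + 1), over genes with at least 5 counts in a library of the group, so Stag3 is left out for 1/4. Without the added 1, Stag3 differed most, by 3.16 in 1/2 and 2.68 in 1/8. Apart from Smc1b and Stag3, the members' median percentiles among protein-coding genes ran from 79.3 for Rad21 to 93.7 for Smc3. The part of level in the contrast with all genes was not tested.

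The first comparison asks whether the number of amplification cycles changes the measured levels. At 14 against 10 cycles, 0 of the 9 tested members passed an adjusted p of 0.01 in edgeR, where 0% of 17532 genes passed. DESeq2 also called 0 members, and 2 members, Sgo2a and Espl1, had an unadjusted p under 0.05. The members' log2 fold changes ran from −0.58 for Wapl to −0.01 for Smc1b, with a median of −0.24 against 0.01 over all genes. Over all genes edgeR gave 513 with an unadjusted p under 0.05, and DESeq2 called 2 genes. These p-values, and all below, measure the spread between these libraries.

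At 18 against 10 cycles 1 of 9 members, Rad21, passed the threshold, where 23.1% of 17532 genes did (1898 lower and 2155 higher). Size factors were the median ratio over genes, so a fold change is relative to the rest of the library. Rad21 fell by 1.02 on the log2 scale (SE 0.25, n = 2 against 2, adjusted p = 0.00998 in edgeR) but was at 1.20 with ERCC size factors, and both libraries at 18 cycles lay below both at 10 cycles. The other tested members that are subunits of the ring did not pass (Stag2, outside the members, did): Smc1b was at −0.95 (SE 0.38), Smc1a at −0.70 (SE 0.21), Smc3 at 0.59 (SE 0.19) and Stag3 at 0.89 (SE 0.61). Their adjusted p-values in edgeR were 0.0795, 0.0263, 0.0378 and 0.272. Of the protectors, Sgo1 was at −0.42 and Sgo2a at −0.16, and of the removers Wapl was at −0.30 and Espl1 at 0.24. Over left-out libraries Stag3 ran from 0.36 to 1.24, Sgo1 from −0.62 to −0.19 and Espl1 from 0.14 to 0.34. The members' median was −0.30, against −0.29 over all genes, and 4 members had an unadjusted p under 0.05, as did 45.6% of all genes. Their share of calls, 1 of 9, was not above that of all genes.

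The call of Rad21 stood close to the threshold. It was lost whichever of the 6 whole-oocyte libraries was left out, with log2 fold changes from −1.12 to −0.90 and adjusted p-values in edgeR of 0.0289 and 0.0663 without replicates 1 and 2 at 10 cycles, 0.016 and 0.0153 without those at 14 cycles, and 0.0605 and 0.0223 without those at 18 cycles. Against 14 cycles as the reference it was −0.78 (adjusted p = 0.0336 in edgeR). At 18 against 10 cycles DESeq2 called Rad21 lower and Smc3 higher, where 29.4% of 17532 genes passed. Under ERCC size factors the all-gene median moved from −0.29 to 1.96 and 7 of 9 members passed as higher, all but Smc1b and Rad21, where 47.6% of all genes did and 0 were lower. Rad21 was then at 1.20, which is −0.76 relative to the all-gene median, and −0.73 with the median ratio. Relative to the same medians Smc3 was at 0.84 with ERCC size factors and 0.88 with the median ratio, and Smc1a at −0.43 and −0.41.

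Depth, the ratio of oocyte RNA to ERCC and the oocyte markers differed between 18 cycles and both 10 and 14 cycles. Their part in the differences of the members was not tested. For each ERCC count there were 323 and 360 gene counts with 10 cycles, 347 and 354 with 14, and 1873 and 1158 with 18. With the median ratio 8 of the 10 oocyte markers and 2 of the 11 tested granulosa markers passed as lower at 18 against 10 cycles. With ERCC size factors 0 of all genes passed as lower. The oocyte markers Zp1 (1.36), Zp3 (1.60) and Figla (2.82) passed there as higher, and no granulosa marker did. Each group holds different oocytes, so oocyte, preparation and cycle number cannot be told apart. Over 17513 genes, used without a test, the log2 fold change correlated with GC content with a Spearman rho of 0.37 and with transcript length with a rho of 0.02. Rad21 and Smc3 have 44.3% and 42.3% GC, and Espl1, at 56.1%, had the highest GC of the tested members.

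**Figure D3:**
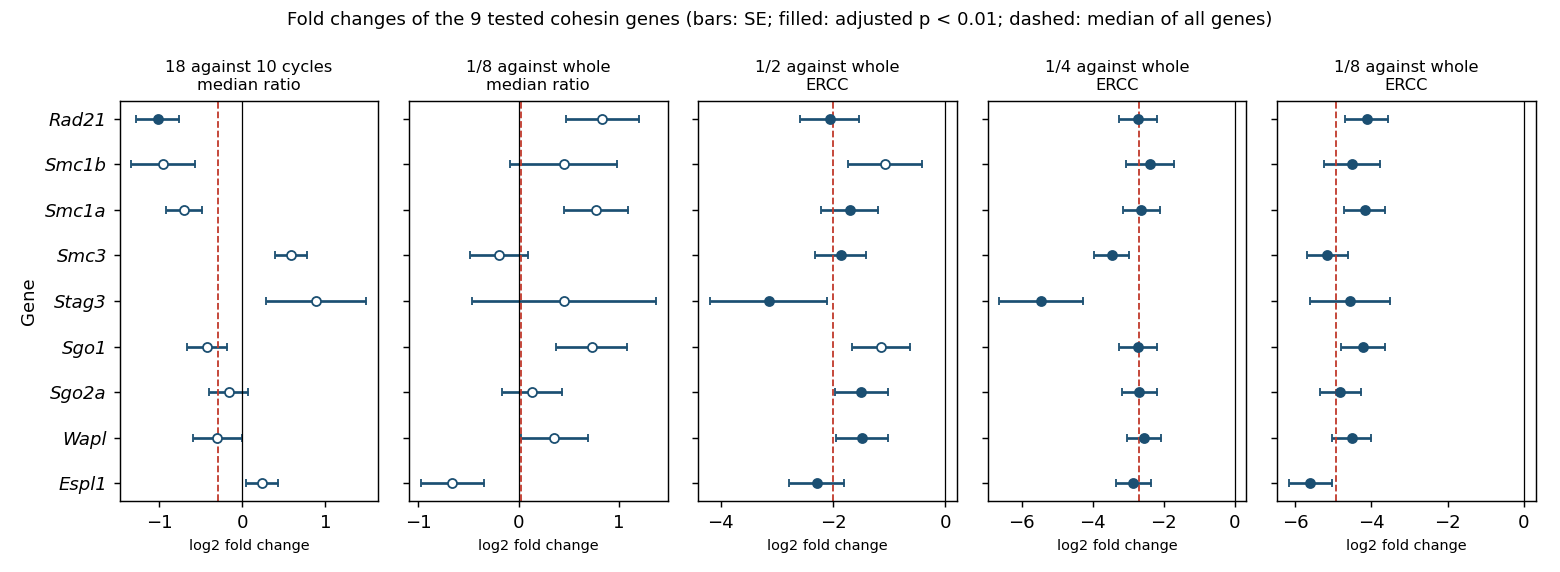
Log2 fold changes of the 9 tested cohesin genes in 5 comparisons, with bars of 1 standard error, filled points at an adjusted p under 0.01 in edgeR, a solid line at 0 and a dashed line at the median of all genes tested. Only Rad21 is filled at 18 against 10 cycles (it lies above 0 with ERCC size factors), none is filled for 1/8 with the median ratio, and with ERCC size factors the points lie around medians of −2.00, −2.69 and −4.92.

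The fractions ask what remains measurable as the input RNA falls to 1/2, 1/4 and 1/8 of an oocyte. The 3 comparisons share the whole oocytes at 18 cycles as their reference, which also form the 18-cycle side of the comparison with 10 cycles. With median ratio size factors, which compare the composition of the libraries, 0 of 9 members passed in edgeR or in DESeq2 at 1/2, where 0.122% of 14788 genes passed in edgeR. The same held at 1/4, where 0.46% passed, and at 1/8, where 15.7% passed. At an unadjusted p under 0.05 there were 1, 2 and 3 members of 9, against 13.1%, 15.8% and 39.2% of all genes. The medians of the members were 0.26, 0.01 and 0.45 on the log2 scale, against −0.01, 0.05 and 0.03 over all genes.

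At 1/2, the values of single members ran from −0.94 for Stag3 (SE 0.98) to 0.93 for Smc1b (SE 0.53). At 1/4, they ran from −2.62 for Stag3 (SE 1.09) to 0.37 for Smc1b (SE 0.53), with Smc3 at −0.71 (SE 0.29). At 1/8, Rad21 was at 0.83 (SE 0.36), Smc1a at 0.77 (SE 0.32), Sgo1 at 0.73 (SE 0.35) and Espl1 at −0.66 (SE 0.31). With 1 library left out Sgo1 ran from 0.43 to 1.03 there and Espl1 from −1.30 to −0.21. The value of Stag3 at 1/8, 0.45, turned to −1.52 without replicate 1 of that group, which has 129 counts of Stag3 against 3 in replicate 2. Against the whole oocytes at 10 cycles as the reference, Rad21 at 1/8 was at −0.18 and Smc1a at 0.07.

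Relative to the spike-in, the members dropped with the input. Summed over the members there were 1912 and 1354 counts per 1000 ERCC counts in the whole oocytes at 18 cycles, 538 and 458 for 1/2, then 219 and 194 for 1/4, with 54.1 and 71.2 left for 1/8. The groups did not overlap and followed the order of dilution. Counts on all genes did the same, so this order is not particular to the members. For each ERCC count there were 1873 and 1158 gene counts in the whole oocytes at 18 cycles and 439 and 344 for 1/2. They were 214 and 174 for 1/4 and 49.3 and 46.5 for 1/8. The member sum per 1000 ERCC counts was 389 and 525 in whole oocytes at 10 cycles and 364 and 352 at 14 cycles. These sums were thus below the whole oocytes at 18 cycles and above 1/4. Smc3 went from a mean of 486 counts per 1000 ERCC counts (SD 156, n = 2) in the whole oocyte at 18 cycles to 139 (SD 19.2), 41.3 (SD 6.91) and 15.4 (SD 4.07) in the fractions. Rad21 went from 50.7 (SD 16.1) to 12.9 (SD 3.69), 7.12 (SD 0.83) and 3.30 (SD 0.59).

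At 1/2 with ERCC size factors, 7 of 9 members fell, where 52% of 14788 genes passed, and 6 with DESeq2, total ERCC counts or the replicate block, each of which lost Stag3. At 1/4 all 9 tested members fell, where 69.7% of genes passed, and at 1/8 all 9 fell, where 87.5% passed. Every gene called in these comparisons was lower. At 1/2 the exceptions were Smc1b (−1.07, SE 0.66, adjusted p = 0.14 in edgeR) and Sgo1 (−1.14, SE 0.52, adjusted p = 0.0471 in edgeR). Over left-out libraries these ran from −1.48 to −0.48 for Smc1b and from −1.88 to −0.67 for Sgo1. The members' medians were −1.70, −2.71 and −4.51 on the log2 scale, against all-gene medians of −2.00, −2.69 and −4.92. Their range at 1/8 was from −5.60 for Espl1 to −4.12 for Rad21, which is −0.68 and 0.80 relative to the all-gene median, though with 1 library left out Stag3 alone ran from −6.52 to −3.40.

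At 1/2 calls crossed the threshold when single libraries were left out, with log2 fold changes of 0.621 to 1.61 times their size. Without replicate 2 of 1/2 the members called were 0 of 9, without replicate 1 of 1/2 they were 4, and without replicate 1 of the whole oocytes at 18 cycles 1 (Espl1). Without replicate 1 of 1/4 the calls of Stag3 and Sgo2a were lost (adjusted p = 0.0101 and 0.012 in edgeR), and without replicate 2 of 1/4 that of Sgo2a (adjusted p = 0.0115). At 1/4 the call of Smc1b was lost without replicate 1 of the whole oocytes or without either library of 1/4, with adjusted p-values in edgeR of 0.0301, 0.023 and 0.0237. At 1/8 the call of Stag3 was lost without replicate 1 of the whole oocytes (adjusted p = 0.0194 in edgeR).

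These falls depended on the reference as well. With the whole oocytes at 10 cycles in its place, 0 of 9 members passed at 1/2, 1 at 1/4 (Rad21, −1.54, adjusted p = 0.00326 in edgeR) and 8 at 1/8 (all tested members but Stag3), where 12.7%, 10.8% and 79.3% of 16582 genes passed. Of all genes 588 passed as lower and 1522 as higher at 1/2, and 1488 as lower and 295 as higher at 1/4. At 1/8 every gene that passed was lower. With this reference the members' medians were 0.17, −0.94 and −2.76, against all-gene medians of −0.05, −0.64 and −2.80. At 1/2, 8 members had an unadjusted p under 0.05 with the 18-cycle reference (70.7% of all genes), and 2, Smc3 at 0.87 and Rad21 at −0.91, with the 10-cycle reference (34.0% of all genes). The choice of reference also changed the cycle number, and the 2 cannot be told apart in that comparison.

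The 30 other cohesion genes include the subunits Rad21l, Stag1 and Stag2 and genes that load, acetylate, guard or release the ring. All 30 had counts, and some are named here by role, not by rank. By level per kilobase, the median was 468 CPM for Pttg1, the securin that holds separase in check, and 140 for Plk1, a kinase that phosphorylates cohesin. It was 14.4 for Nipbl, the loader, 10.1 for Meikin, which acts at meiotic kinetochores, 7.17 for Stag2 and 4.18 for Stag1. The regulators Pds5b and Pds5a were at 4.20 and 1.72 CPM per kilobase. The mRNA of securin was thus more abundant than that of separase, whose median was 36.9 CPM per kilobase. Protein was not measured.

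Among these genes 0 of 30 passed at 14 against 10 cycles in edgeR and in DESeq2, and 0 had an unadjusted p under 0.05 in either. At 18 against 10 cycles 8 fell and 4 rose with the median ratio, 12 of 30 where 23.1% of all genes passed. With ERCC size factors 0 of all genes passed as lower and 47.6% as higher, so none of the 8 falls held. The 4 rises passed there too. Of the 8, Ppp2r1a turned from a fall (−0.85, SE 0.20) to a rise (1.36, SE 0.41, adjusted p = 0.0062 in edgeR). The largest falls were those of Meikin (−2.21, SE 0.43), the cohesin deacetylase gene Hdac8 (−2.01, SE 0.40), Stag2 (−1.63, SE 0.23) and Pds5b (−1.42, SE 0.30), which were at 0.08, 0.28, 0.60 and 0.87 with ERCC size factors. Meikin was at 16.4 and 15.2 CPM at 10 cycles and at 3.65 and 1.76 CPM at 18 cycles. The largest rises were those of Ppp2ca, the catalytic subunit of protein phosphatase 2A (1.96, SE 0.32), its regulatory subunit Ppp2r5e (1.76, SE 0.25), the histone kinase gene Haspin (1.38, SE 0.21) and Csnk1d (0.98, SE 0.22), a casein kinase gene. Relative to the all-gene median the falls were −1.92, −1.72, −1.34 and −1.13 with the median ratio and −1.88, −1.68, −1.35 and −1.08 with ERCC size factors. Ppp2ca shares 2985 exon bases with a noncoding gene on the other strand, 9430098F02Rik, so its level may be too low for the same reason as that of Sgo2a.

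Several of these calls no longer passed when 1 library was left out. Their log2 fold changes, taken with those of Rad21 and the axis genes, kept their direction and 0.749 to 1.22 of their size. Without replicate 1 at 10 cycles Meikin, Hdac8, Pds5b, Csnk1d, Haspin and Ppp2ca no longer passed, and without replicate 2 at 10 cycles neither these 6 nor Ppp2r5e did. Csnk1d was also lost without either library at 14 cycles or without replicate 1 at 18 cycles, and Hdac8 and Pds5b without replicate 2 at 18 cycles. The adjusted p-values of the lost calls, Rad21 and the axis genes included, ran from 0.01 to 0.0663 in edgeR. Stag2 passed with each of the 6 libraries left out. With 14 cycles as the reference, Csnk1d was lost as well (0.60, adjusted p = 0.0497 in edgeR).

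At 1/8 against whole oocytes with the median ratio, 5 of the 30 genes rose and 2 fell, where 15.7% of all genes passed, while with ERCC size factors each was lower. Of the 10 oocyte markers 6 also passed as higher with the median ratio, and all 10 as lower with ERCC size factors. Their part in these rises was not tested. The rises included Meikin (2.61, SE 0.62), Stag2 (1.48, SE 0.37), the acetyltransferase gene Esco2 (1.23, SE 0.33) and Pttg1 (1.18, SE 0.29). The falls were those of Ppp2ca (−1.88, SE 0.34) and Haspin (−1.25, SE 0.27). This comparison and the one of 18 against 10 cycles share the whole oocytes at 18 cycles, so they are not independent. In 1/8 of an oocyte Meikin was at 14.9 and 25.9 CPM, below and above the values at 10 cycles. With the 10-cycle reference each of these 6 calls was lost, and 0 of 16582 genes passed in edgeR, with 1914 at an unadjusted p under 0.05. Ppp2ca was the only one of the 30 to pass at 1/4 (−2.22, SE 0.34), where 0.46% of all genes passed. At 1/2 0 passed in edgeR and in DESeq2, where 0.122% of all genes passed in edgeR, and 8 of 30 had an unadjusted p under 0.05, against 13.1% of all genes.

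These 1/8 calls also crossed the threshold when single libraries were left out, with log2 fold changes, axis genes included, that kept their direction and 0.533 to 1.28 of their size. Without replicate 1 of the whole oocytes Stag2 and Meikin no longer passed, without replicate 2 of the whole oocytes none of the 6 did, and without replicate 1 of 1/8 Ppp2ca and Pttg1 did not. Without replicate 2 of 1/8 Haspin, Pttg1, Esco2, Stag2 and Meikin were lost, and without replicate 2 of 1/4 Esco2. Their adjusted p-values, with those of the axis genes, ran from 0.0101 to 0.224 in edgeR. With ERCC size factors 23, 24 and 30 of the 30 genes fell at 1/2, 1/4 and 1/8, where 52%, 69.7% and 87.5% of all genes did, and none rose.

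The axis and synaptonemal genes encode parts of the chromosome cores that carry meiotic cohesin in prophase, or of the complex that joins these cores. Of the 9, 8 had counts and Syce3 had 0 in all libraries. Syce2 was by far the most abundant, with a median of 397 CPM per kilobase against 15.6 for Tex12, 10.3 for Sycp2, 8.34 for Sycp3, 1.98 for Hormad2, 1.89 for Sycp1, 0.682 for Syce1 and 0.0822 for Hormad1. At 18 against 10 cycles, of the 8 tested, Sycp3 (−2.49, SE 0.52) and Sycp2 (−2.20, SE 0.31) fell and Syce2 (1.35, SE 0.23) rose. There 23.1% of all genes passed. Of the exon bases of Sycp3, 52.2% are shared with Chpt1 on the other strand, so its counts may cover only part of the gene. Sycp3 and Sycp2 did not pass with ERCC size factors, at −0.19 and −0.02. Relative to the all-gene median they were at −2.20 and −1.91 with the median ratio and at −2.15 and −1.98 with ERCC size factors. Sycp3 was lost without either library at 10 cycles or either at 18 cycles, and Syce2 without replicate 1 at 10 cycles.

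At 1/8 with the median ratio 4 of the 7 tested axis genes passed, where 15.7% of all genes did. Sycp3 (3.38, SE 0.69), Sycp1 (3.29, SE 0.83), Tex12 (1.89, SE 0.43) and Sycp2 (1.63, SE 0.36) rose, though all lay below 0 with ERCC size factors. Sycp3 was at 2.32 and 1.17 CPM in the whole oocytes at 18 cycles and at 21.5 and 22.9 CPM in 1/8, but already at 14.1 and 10.9 CPM in whole oocytes at 10 cycles. None of these 4 calls held with the 10-cycle reference, where Sycp2 was at −0.56 and the others at 0.89, 0.99 and 1.57. All 4 were also lost without replicate 1 of the whole oocytes, Sycp1 and Sycp3 without replicate 2, Sycp1 without replicate 1 of 1/8, and Sycp2 and Tex12 without replicate 2 of 1/8. Of the 7 tested axis genes 1, 4 and 4 fell with ERCC size factors at 1/2, 1/4 and 1/8, where 52%, 69.7% and 87.5% of all genes did.

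The genes whose levels were most like those of Sgo2a over the 12 libraries were sought among 8858 genes with a mean of at least 10 CPM. They were Esco1 (Pearson r of 0.91 on log2(CPM + 1)), Gm20521 (0.88) and Pabpn1 (0.87). Esco1 encodes an acetyltransferase of Smc3, and the other 2 lie on chromosome 14. Among the members, Wapl came closest to Sgo2a (0.82), followed by Sgo1 (0.67), while Rad21 was at 0.05 and Espl1 at −0.29. These values describe 12 libraries that share depth and preparation within groups. For Rec8 no such value exists.

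The start regions of the members were read from RefSeq (GRCm38.p6), which held an entry for 9 of the 10, all but Rad21. As background, the repressor E2F6 keeps Smc1b and Stag3 silent in somatic cells. The E2F-type motif TTCCCGC, searched on both strands in the 250 bases of each entry, was in 3.82% of 32851 promoters and in 1 of the 9 members, Smc1b, 48 bases before the end of the RefSeq entry, which reaches into the first exon of the annotation used here. The E-box CACGTG, a palindrome, was in 6.02% of promoters and in 3 members: Stag3, Sgo1 and Espl1. The motifs do not overlap, and a match is a description of the letters only. The parts outside exons are given for the kleisin gene with no counts and for the member that holds the E2F-type motif. The first is chr14:55617916-55618036 on the plus strand (121 bases) and the second chr15:85131965-85132077 on the minus strand (113 bases), with the motif in capitals.
Rec8: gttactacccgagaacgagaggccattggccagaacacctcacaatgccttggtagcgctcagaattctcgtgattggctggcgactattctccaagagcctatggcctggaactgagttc
Smc1b: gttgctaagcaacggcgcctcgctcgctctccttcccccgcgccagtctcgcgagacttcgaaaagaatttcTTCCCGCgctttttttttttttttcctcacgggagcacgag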

How the data were processed

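The labels name cutadapt 2.5 for trimming, STAR 2.7.2a for mapping to mm10 and HTSeq 0.9.1 for counting. The study's methods name another version of each. The deposited values are counts for each gene and ERCC molecule, with no step of normalization or deduplication named. The annotation release they used was not stated. Reads on no feature were 6.90% to 10.8% of each library, so the counts were read as made without regard to strand. The methods name default HTSeq settings, which count by strand, and this conflict is not resolved.

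Counts were tested with edgeR 4.0.16 (quasi-likelihood, R 4.3.3) in 1 fit of the 6 whole oocytes and 1 of the 8 libraries at 18 cycles, keeping genes that reached 5 counts in 2 or more libraries. Benjamini-Hochberg adjustment ran over all genes tested, with a threshold of 0.01. Size factors were the median ratio over genes or over ERCC molecules. Level ratios used the longest transcript. Intervals are exact Poisson at 95%, and the limit of 3 counts is 1-sided. The fits were tested on simulated data. Alternatives were DESeq2 1.42.0, no filter, TMM, other ERCC scaling, other whole-oocyte references, the replicate block and leaving out each library; a crossed block at 14 cycles was chosen after seeing the data. All members are named in the text. Other cohesion genes are named by role, where levels are given, or as the largest changes, at most 4 in each direction, and the likeness to Sgo2a takes 3 genes. Ppp2r1a is named because its call turned with ERCC size factors. The members and lists were chosen with earlier results of these data known.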

Additional observations from a re-analysis of the deposited data

How the results depend on the processing

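The 0 members called at 14 against 10 cycles and, with the median ratio, at 1/2, 1/4 and 1/8 stayed 0 under DESeq2, no filter, TMM, the replicate block and each left-out library, and with the 10-cycle reference for the fractions; with 2 libraries a group, a count of 0 says little about stability. With the 10-cycle reference and the median ratio 16.4%, 10.1% and 0% of 16582 genes passed at 1/2, 1/4 and 1/8. Where a group keeps 1 library, that library is assumed to vary like the other groups. At 18 against 10 cycles the 1 member called became 2 under DESeq2, 7 (all higher) with ERCC size factors, and 0 with the 14-cycle reference or without any 1 of the 6 libraries (lowest 0, highest 0). Of 17532 genes 29.4% passed under DESeq2 and 47.6%, all higher, with ERCC size factors. With the 14-cycle reference 1873 genes passed as lower and 2199 as higher. With ERCC size factors the log2 fold changes were 1.30 for Smc1b, 1.52 for Smc1a, 1.20 for Rad21 and 1.78 for Sgo1. They were 2.02 for Sgo2a, 1.79 for Wapl, 0.0792 for Meikin, 0.28 for Hdac8, 0.60 for Stag2 and 0.87 for Pds5b. The all-gene median was then 1.96. With the 14-cycle reference Sgo2a was at 0.42 and Wapl at 0.29; over left-out libraries Sgo2a ran from −0.44 to 0.17 and Wapl from −0.80 to 0.12. At 1/8 with the median ratio the 10-cycle reference gave −0.52 for Smc1b, 0.39 for Smc3, −0.18 for Rad21, −0.0329 for Sgo2a, 0.0746 for Ppp2ca, 0.12 for Haspin, −0.15 for Stag2 and −0.56 for Sycp2. Left-out libraries gave −0.0490 to 0.95 for Smc1b, −0.52 to 0.11 for Smc3, −1.52 to 1.13 for Stag3, −0.20 to 0.46 for Sgo2a and −0.24 to 0.86 for Wapl. With ERCC size factors and the 10-cycle reference the members called were 0 at 1/2 and 1 at 1/4, and at 1/2 Smc1b was at 0.17, Smc3 at 0.87, Stag3 at 0.0137, Sgo1 at 0.59, Sgo2a at 0.48, Wapl at 0.27 and Espl1 at 0.12. Left-out libraries gave 0 to 7 members at 1/2. The cause of these differences was not tested.

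The numbers of the libraries pair no oocytes that the labels or methods name, and same-numbered deviations correlated between −0.15 and 0.22 across genes. With a replicate block 1 member passed at 18 against 10 cycles, and at 1/2 with ERCC size factors 6 in place of 7 (Stag3 lost); DESeq2 and total ERCC counts lost Stag3 there too. With the numbers at 14 cycles crossed, the members called were 0 and 1 at 14 and at 18 against 10 cycles. Union exon lengths moved the mean log2 ratio of Sgo2a to Sgo1 from 0.68 to 0.24, more than the replicates' SD of 0.19. Counts of 2 to 129 limit Stag3, and 12 to 24 counts at 18 cycles limit Smc1b. ERCC counts of 1474 and 1611 in the whole oocytes at 18 cycles limit each value relative to the spike-in at that reference.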
